A study of Mus musculus with 12 samples.

Results

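DNA replication and G1/S genes are described here in tumour-infiltrating cells of the mouse that were sorted as CD8+. The 42 members are the rows of the deposited gene table whose symbol is on a list covering origin licensing, the replication fork, nucleotide supply and entry into S phase. All 42 were found among 56980 genes, and all 42 were among the 20411 genes with enough counts to be tested.

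Bulk RNA was sequenced from 12 libraries in 4 groups of 3, all from wild type C57BL/6J mice, whose age and sex are not given in the labels. Panc02, a pancreatic tumour line of the mouse, formed the tumours, either as such or made to express Flt3L, which drives the growth of dendritic cells. The sort took cells that were DAPI- (DAPI marks dead cells), CD45.2+ (a leukocyte surface protein), CD8+ and either negative or positive for asGM1, the surface marker that divides the gates. The groups are therefore Panc02 asGM1-, Panc02 asGM1+, Flt3L Panc02 asGM1- and Flt3L Panc02 asGM1+, with replicates 1, 2 and 3 in each. The labels do not say whether replicates came from separate mice or pools, or how Flt3L was expressed, so p-values measure the spread between these libraries, which may be technical.

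Library totals lay between 98663008 and 102896605 counts in a table of estimated counts. Within groups, Spearman correlations between libraries across the tested genes were 0.973 to 0.983. Cd8a, a chain of the CD8 co-receptor, was abundant in every library, at 1569 to 2562 CPM (read counts scaled to library size). A gene of another cell type was counted beside it: Siglech, which defines plasmacytoid dendritic cells, was 40.4 to 70.1 CPM in Panc02 asGM1- and 253 to 289.9 CPM in Flt3L Panc02 asGM1-, against 0.0901 to 4.56 CPM in the asGM1+ libraries.

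Before a cell copies its DNA, the origin recognition complex, Cdc6 and Cdt1 load the ring-shaped Mcm2 to Mcm7 helicase onto origins, a step called licensing. Cyclin E with its kinase then frees E2F transcription factors from the retinoblastoma protein, and E2F turns on much of this gene group. At S phase Cdc45, Mcm10 and the GINS complex activate the helicase, and polymerases, the clamp Pcna and flap and ligase enzymes copy both strands. In T cells these genes are low at rest and high in dividing cells, and in a bulk library fewer cycling cells and less RNA per cell cannot be told apart.

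The promoters of several members carry the E2F motif, and the windows below are from some of these members. No window without the motif is shown. The sequences are from RefSeq (GRCm38.p6), 60 bases each, read 5′ to 3′ on the strand of the gene, and capitals mark the motif. 35 of the 42 members had an entry in the promoter table. The motif was searched in the 250 bases before the start as TTTCCCGC, TTTCGCGC, TTTGCCGC or TTTGGCGC on both strands, and matches may overlap. The windows from Mcm5, Mcm6, Mcm7, Orc1 and Uhrf1 belong to members called higher in asGM1+ cells of Flt3L Panc02 tumours. Those from Cdc6 and Rfc3 belong to members that were not called. Gins3 and Pola1, which carry the motif and are not printed, were not called either.
Mcm5 (chr8:75109330-75109389, plus strand): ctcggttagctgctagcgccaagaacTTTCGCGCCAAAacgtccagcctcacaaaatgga
Mcm6 (chr1:128359782-128359841, minus strand): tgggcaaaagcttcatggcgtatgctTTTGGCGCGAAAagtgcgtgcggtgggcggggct
Mcm7 (chr5:138172015-138172074, minus strand): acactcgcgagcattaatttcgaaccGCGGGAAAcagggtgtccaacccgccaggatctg
Orc1 (chr4:108579394-108579453, plus strand): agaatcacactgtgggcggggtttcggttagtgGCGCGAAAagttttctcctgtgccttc
Uhrf1 (chr17:56304102-56304161, plus strand): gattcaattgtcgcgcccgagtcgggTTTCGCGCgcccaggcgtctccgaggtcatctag
Cdc6 (chr11:98907987-98908046, plus strand): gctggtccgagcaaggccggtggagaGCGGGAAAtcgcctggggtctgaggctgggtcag
Rfc3 (chr5:151651209-151651268, minus strand): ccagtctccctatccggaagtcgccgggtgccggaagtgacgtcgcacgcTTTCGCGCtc

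The first motif of the printed windows began 10 bases before the start in Rfc3, the nearest, and 185 bases before it in Uhrf1, the farthest. In Mcm5 and Mcm6 the capitals run over 2 overlapping matches on opposite strands. The motif was present in 9 of 35 members (25.7%), the 7 printed plus Gins3 and Pola1, against 583 of 27025 genes in the table (2.16%). It was in 8 of 43 other replication and S phase genes (18.6%) and in 2 of 39 mitosis genes (5.13%). The CCAAT box, searched as CCAAT on both strands and bound by the factor NF-Y, was in 20 of 35 members (57.1%), 31 of 39 mitosis genes (79.5%) and 37.5% of all genes. The CHR element, searched as TTTGAA on both strands and known from genes that peak in mitosis, was in 4 of 35 members (11.4%), 15 of 39 mitosis genes (38.5%) and 18.3% of all genes. A match describes these letters in this window and is not a measure of binding.

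The 42 members summed to 7685, 7306 and 7453 CPM in the Panc02 asGM1- libraries, 7646, 8076 and 8822 CPM in Panc02 asGM1+, 5797, 5102 and 4959 CPM in Flt3L Panc02 asGM1- and 8581, 6837 and 7137 CPM in Flt3L Panc02 asGM1+. Library sizes behind CPM were scaled by TMM, edgeR's trimmed mean method. The 3 Flt3L Panc02 asGM1- libraries were the lowest of the 12, and the other groups overlapped. Gene by gene, Flt3L Panc02 asGM1- had the lowest group mean in 41 of 42 members. The exception was Ung, the uracil glycosylase that removes uracil from DNA, whose lowest mean was in Panc02 asGM1+. The highest mean was in Panc02 asGM1+ for 34 members and in Flt3L Panc02 asGM1+ for 8. The order Flt3L Panc02 asGM1-, Flt3L Panc02 asGM1+, Panc02 asGM1-, Panc02 asGM1+ from low to high held in 23 members. The shares of all genes with these lowest and highest means and this order were not counted. In 18 members all 3 Flt3L Panc02 asGM1- libraries lay below each of the other 9, as did 3.76% of all genes tested.

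**Figure D1:**
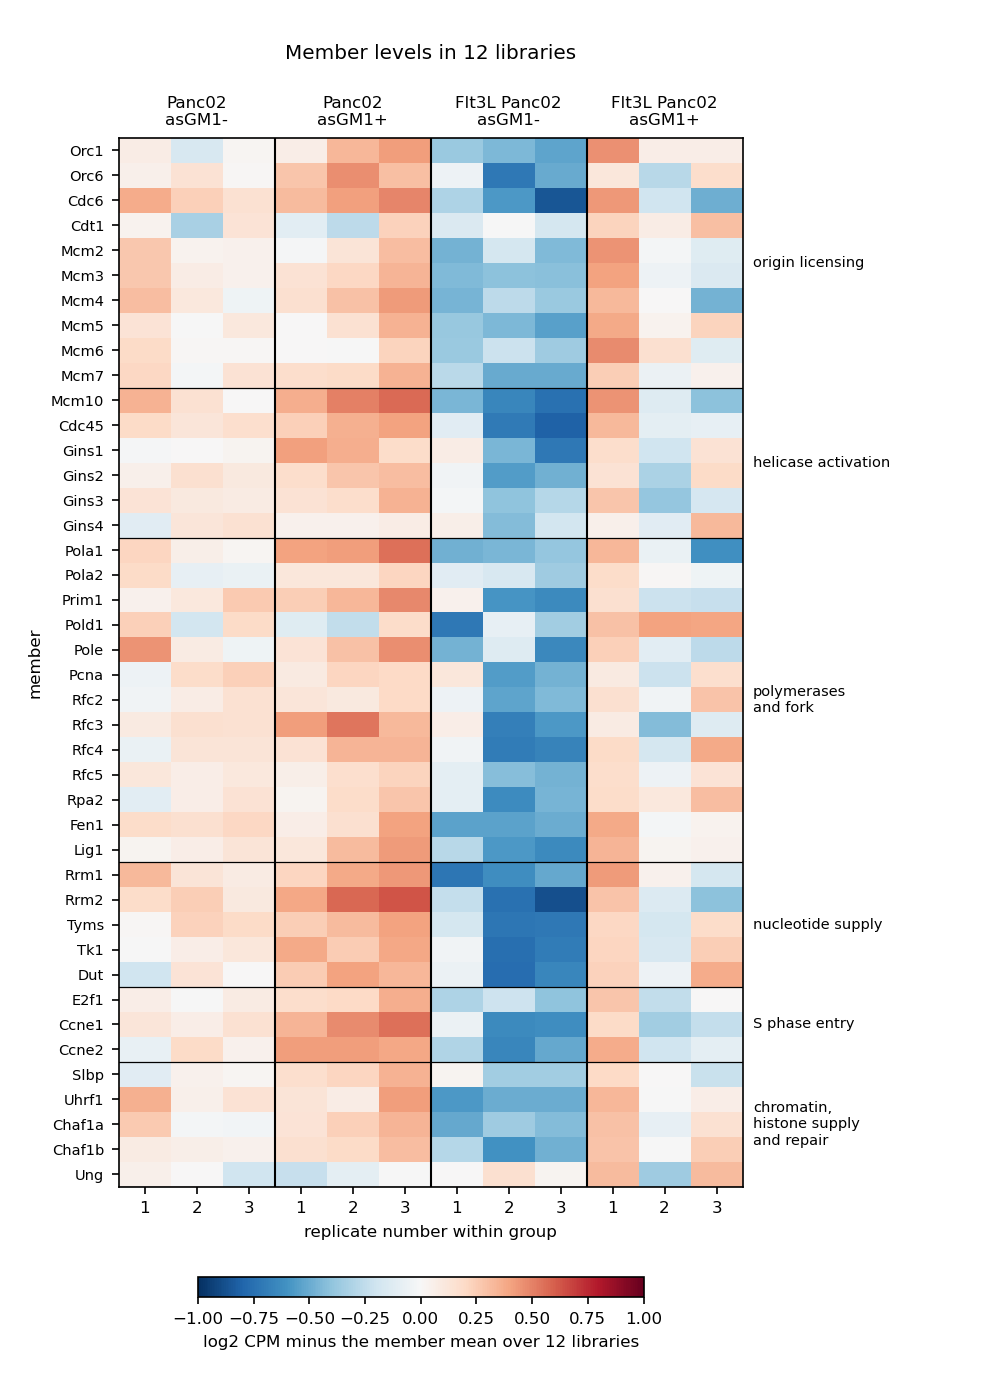
Log2 CPM of each of the 42 members in 12 libraries, minus that member's mean over the 12 libraries (color scale in log2 units), with members in rows by role and libraries in columns by group and replicate. The Flt3L Panc02 asGM1- columns are the bluest, with the lowest group mean in 41 of 42 members (share of all genes not counted).

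Each comparison was tested gene by gene with edgeR's quasi-likelihood test, and calls were made at a threshold of 0.05 on p-values adjusted over the 20411 genes (Benjamini-Hochberg). Log2 fold changes are given with their standard error (SE). In Flt3L Panc02 tumours, asGM1+ cells had more RNA of the replication genes than asGM1- cells. There, 17 of 42 members were called higher, against 2.77% of all genes called higher, and 0 were called lower, against 5.83% of all genes. All 42 log2 fold changes were above 0, with a median of 0.50 beside -0.01 over all genes. The groups did not overlap, with asGM1+ higher, for 22 members and for 11.4% of all genes. The called members became 0, against 0.387% of all genes called higher, when libraries were scaled on summed T cell identity genes. This scaling moved the median of all genes to -0.34 and that of the members to 0.19. A change of scaling shifts members and all genes alike, so the distance between these medians cannot test the scaling.

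In Panc02 tumours the same gate comparison gave 0 called members in either direction, while 0.049% of all genes were called higher and 0.843% lower. An unadjusted p under 0.05 was found by edgeR for 0 members and 9.99% of all genes, by DESeq2 for 2 members and 11.8% of all genes, and by limma-voom for 13 members and 21.5% of all genes. DESeq2 and limma-voom called 0 members. Of the 42 log2 fold changes 39 were above 0, with a median of 0.16 beside 0.02 over all genes. The libraries did not overlap, with asGM1+ higher, for 18 members and for 8.67% of all genes. The adjusted p ranged from 0.521 for Ccne2 to 0.999 for Gins4 and Mcm6.

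Between tumour types, asGM1- cells had less RNA of the replication genes in Flt3L Panc02 than in Panc02 tumours. 12 of 42 members were called lower, against 1.84% of all genes, and 0 were called higher, against 1.86% of all genes. Of the log2 fold changes 41 were below 0, with a median of -0.50 beside 0.00 over all genes. The libraries did not overlap, with Flt3L Panc02 lower, for 31 members and for 12.9% of all genes. Leaving out Flt3L Panc02 asGM1- replicate 2 moved the 12 calls to 0, against 55 of 21163 genes. Leaving out replicate 1 of that group moved them to 24, against 520 of 21191, and other libraries gave counts in between. Scaling on T cell identity genes gave 0 calls, against 0.416% of all genes called lower, with a median of -0.51.

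In asGM1+ cells, Flt3L Panc02 against Panc02 gave 0 called members, against 2.05% of all genes called higher and 4.2% called lower. By edgeR 7 members had an unadjusted p under 0.05, as did 24.4% of all genes. DESeq2 called 3 members lower (Rrm2, Rfc3 and Ccne1), against 8.99% of all genes. By limma-voom 6 members were called lower, against 8.59% of all genes, and 1, Pold1, higher, against 6.7%. The median log2 fold change was -0.15 beside -0.03 over all genes. For 10 members the Flt3L Panc02 libraries were all lower, as for 16.5% of all genes. For 1, Pold1, they were all higher, and the share of all genes on that side was not counted. Scaling on T cell identity genes called 36 members lower here, against 30.3% of all genes, with a median of -0.66, when the median of all genes moved to -0.55.

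The difference between the gate effects of the tumour types, tested as an interaction, gave 0 called members, against 0.0343% of all genes called higher and 0.333% lower. By edgeR 12 members had an unadjusted p under 0.05, as did 14.8% of all genes. DESeq2 called 4 members higher (Uhrf1, Pold1, Fen1 and Mcm5), against 1.02% of all genes, and limma-voom the same 4 and Rpa2, against 1.29% of all genes. The log2 interaction was above 0, a larger gate effect in Flt3L Panc02, for 39 of 42 members, with a median of 0.31 beside -0.02 over all genes, and with T cell identity scaling it was -0.18 beside -0.53. So the calls in Flt3L Panc02 and their absence in Panc02 were not shown to differ by edgeR.

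**Figure D2:**
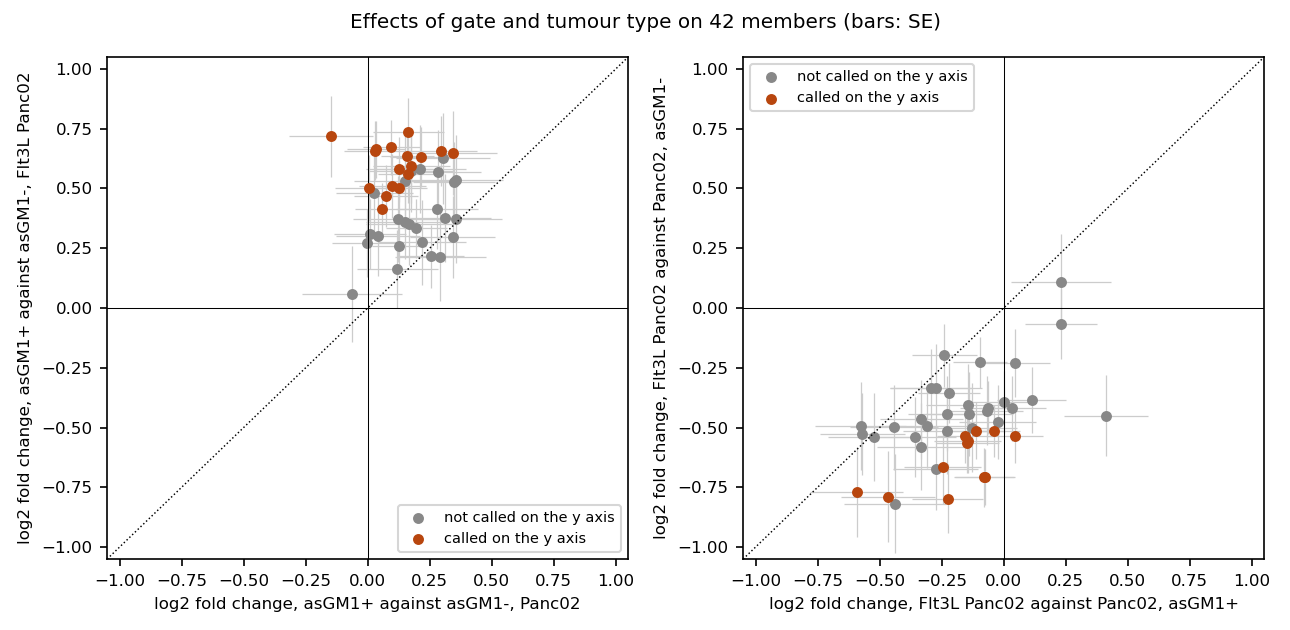
Log2 fold changes with SE of the 42 members: left, the asGM1+ against asGM1- effect in Panc02 (x axis) and in Flt3L Panc02 tumours (y axis); right, the Flt3L Panc02 against Panc02 effect in asGM1+ (x axis) and in asGM1- cells (y axis). Orange points are the 17 (left) and 12 (right) members called on the y axis, dotted lines mark equal effects, and neighbouring axes share libraries.

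The Flt3L Panc02 gate comparison and the asGM1- tumour comparison use the same 3 Flt3L Panc02 asGM1- libraries, so their calls are not independent. 10 members were called in both: Mcm3, Mcm5, Mcm7, Fen1, Lig1, Rrm1, Tyms, Uhrf1, Chaf1a and Chaf1b. The share of all genes called in both was not counted, so this number cannot be judged against it. Dut, Mcm6, Orc1, Pold1, Rfc2, Rfc5 and Rpa2 were called in the gate comparison only, and Mcm10 and Rrm2 in the tumour comparison only, where the difference between the calls was not tested. The other 23 were called in neither.

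The licensing members recognise and load origins. Orc1 (ENSMUSG00000028587), the ATPase subunit that starts the origin complex, stood at 17.3, 14.7 and 16.7 CPM in the Panc02 asGM1- libraries, 17.2, 20.7 and 21.9 in Panc02 asGM1+, 12.7, 12.044 and 11.4 in Flt3L Panc02 asGM1- and 22.6, 17.2 and 17.2 in Flt3L Panc02 asGM1+. The Flt3L Panc02 asGM1- libraries were below the other 9. Orc1 was 1.58-fold higher in asGM1+ than in asGM1- cells of Flt3L Panc02 tumours, a log2 change of 0.66 ± 0.15 (adjusted p = 0.0184). Cdc6, which joins the origin complex to receive the helicase, stood at 81.4, 74.1 and 69.9 CPM in the Panc02 asGM1- libraries, 78.2, 83.7 and 88.1 in Panc02 asGM1+, 50.8, 42.2 and 34.8 in Flt3L Panc02 asGM1- and 85.1, 54.8 and 44.8 in Flt3L Panc02 asGM1+. Its asGM1- libraries of Flt3L Panc02 were below all of Panc02, and its Flt3L Panc02 gates overlapped. The tumour difference in asGM1- cells was -0.82 ± 0.21 (adjusted p = 0.0528), the largest log2 change among members in that comparison, and it missed the threshold.

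Cdt1, the partner of Cdc6 that is destroyed once S phase starts, stood at 84.7, 66.2 and 90.9 CPM in the Panc02 asGM1- libraries, 77.1, 69.1 and 97.3 in Panc02 asGM1+, 74.9, 82.6 and 73.3 in Flt3L Panc02 asGM1- and 96.7, 87.1 and 102 in Flt3L Panc02 asGM1+. The Flt3L Panc02 gates did not overlap, every other pair of groups compared did, and the log2 change in asGM1- cells between tumours was -0.07 ± 0.15 (adjusted p = 0.855). Orc6, a small subunit of the origin complex, ranged over 32.8 to 74.3 CPM and was not called, with 0.41 ± 0.17 (adjusted p = 0.147) in the Flt3L Panc02 gate comparison.

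The 6 subunits of the replicative helicase enter the ring in equal number. Per kilobase of exon, the mean level over 12 libraries was 169 CPM per kb for Mcm5, 166 for Mcm3, 135 for Mcm7, 128 for Mcm6, 106 for Mcm2 and 65.3 for Mcm4. Mcm5 (ENSMUSG00000005410) stood at 628, 571 and 616 CPM in the Panc02 asGM1- libraries, 574, 636 and 729 in Panc02 asGM1+, 441, 419 and 393 in Flt3L Panc02 asGM1- and 743, 588 and 668 in Flt3L Panc02 asGM1+. All Flt3L Panc02 asGM1- libraries were below the others, which overlapped among themselves. Mcm5 rose 1.59-fold with the asGM1+ gate in Flt3L Panc02, with a log2 change of 0.67 ± 0.12 (adjusted p = 0.00515). The same gate in Panc02 gave 0.10 ± 0.11 (adjusted p = 0.901), and the tumour comparison in asGM1- cells gave -0.53 ± 0.11 (adjusted p = 0.0312).

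In the Flt3L Panc02 gate comparison Mcm7 rose by 0.50 ± 0.11 (adjusted p = 0.0195), Mcm3 by 0.51 ± 0.13 (adjusted p = 0.0381) and Mcm6 by 0.50 ± 0.14 (adjusted p = 0.0451) on the log2 scale. Mcm2 at 0.48 ± 0.15 (adjusted p = 0.08) and Mcm4 at 0.35 ± 0.17 (adjusted p = 0.226) did not pass. In asGM1- cells Mcm3 and Mcm7 were lower in Flt3L Panc02 by log2 changes of -0.56 ± 0.13 (adjusted p = 0.0454) and -0.53 ± 0.11 (adjusted p = 0.0287). Mcm2 (-0.48 ± 0.15 (adjusted p = 0.112)), Mcm4 (-0.49 ± 0.17 (adjusted p = 0.135)) and Mcm6 (-0.38 ± 0.14 (adjusted p = 0.144)) lay on the same side without a call. For 5 of the 6 subunits, all but Mcm4, the Flt3L Panc02 asGM1- libraries were below the other 9. The 6 subunits lay on the same side of 0 in each of these comparisons.

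Helicase activation needs Mcm10, Cdc45 and the 4 GINS subunits, and none of these was called in the Flt3L Panc02 gate comparison. Mcm10, which helps the ring open, stood at 39.9, 34.7 and 31.4 CPM in the Panc02 asGM1- libraries, 40.3, 44.3 and 46.3 in Panc02 asGM1+, 22.8, 19.9 and 18.7 in Flt3L Panc02 asGM1- and 42.6, 28.6 and 23.6 in Flt3L Panc02 asGM1+. Its Flt3L Panc02 asGM1- libraries were the 3 lowest. It was lower in asGM1- cells of Flt3L Panc02 than of Panc02 tumours by a log2 change of -0.79 ± 0.19 (adjusted p = 0.0454), and with the gate in Flt3L Panc02 it gave 0.63 ± 0.19 (adjusted p = 0.0646). Cdc45, which binds the ring to form the active helicase, stood at 109.7, 105 and 108 CPM in the Panc02 asGM1- libraries, 114, 123 and 128 in Panc02 asGM1+, 88.9, 59.0 and 54.9 in Flt3L Panc02 asGM1- and 121, 89.8 and 91.1 in Flt3L Panc02 asGM1+. Here too the Flt3L Panc02 asGM1- libraries were the 3 lowest, with replicate 1 close to the other groups. Its changes were 0.57 ± 0.17 (adjusted p = 0.0625) for the gate in Flt3L Panc02 and -0.67 ± 0.17 (adjusted p = 0.0541) for the tumour type in asGM1- cells.

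Gins2, a subunit of the GINS complex that completes that helicase, stood at 73.3, 78.7 and 75.3 CPM in the Panc02 asGM1- libraries, 79.6, 85.3 and 87.2 in Panc02 asGM1+, 68.9, 48.0 and 50.5 in Flt3L Panc02 asGM1- and 77.9, 56.6 and 80.6 in Flt3L Panc02 asGM1+. The Flt3L Panc02 gates overlapped for Gins2, with a log2 change of 0.36 ± 0.16 (adjusted p = 0.174). Per kilobase of exon, Gins4 was the highest GINS subunit at 68.5 CPM per kb, followed by Gins2 at 18.4, Gins1 at 15.8 and Gins3 at 8.07. The exon length used for Gins2 includes 70.7% that is shared with another gene, Gse1, so its place depends on that annotation. Their CPM ranged over 10.3 to 22.4 CPM for Gins1, 16.3 to 27.5 CPM for Gins3 and 67.8 to 115 CPM for Gins4. None of these 3 was called in any comparison, and their log2 changes with the Flt3L Panc02 gate were 0.38, 0.16 and 0.27.

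At the fork, polymerase alpha with primase lays primers, polymerase epsilon copies the leading strand and polymerase delta the lagging strand. Pola1, the catalytic subunit of polymerase alpha, stood at 35.3, 31.7 and 30.9 CPM in the Panc02 asGM1- libraries, 40.2, 40.6 and 44.7 in Panc02 asGM1+, 21.9, 22.2 and 23.3 in Flt3L Panc02 asGM1- and 38.3, 29.1 and 19.9 in Flt3L Panc02 asGM1+. The Flt3L Panc02 gates overlapped, and asGM1+ replicate 3 was the lowest library of all. Pola1 was not called, and it gave -0.52 ± 0.18 (adjusted p = 0.11) between tumours in asGM1+ cells. Pole, the catalytic subunit of polymerase epsilon, stood at 60.4, 46.7 and 42.9 CPM in the Panc02 asGM1- libraries, 48.5, 54.0 and 60.9 in Panc02 asGM1+, 31.8, 40.4 and 28.2 in Flt3L Panc02 asGM1- and 52.1, 41.0 and 36.8 in Flt3L Panc02 asGM1+. Its tumour difference in asGM1- cells was -0.58 ± 0.18 (adjusted p = 0.1). The primase subunit Prim1 and the polymerase alpha subunit Pola2 ranged over 44.2 to 95.9 CPM and 101 to 149 CPM, with 0.28 ± 0.18 (adjusted p = 0.361) and 0.26 ± 0.11 (adjusted p = 0.16) for the Flt3L Panc02 gate.

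Pold1, the catalytic subunit of polymerase delta, stood at 182, 135 and 175 CPM in the Panc02 asGM1- libraries, 141, 129 and 174 in Panc02 asGM1+, 93.5, 146 and 121 in Flt3L Panc02 asGM1- and 188, 203 and 202 in Flt3L Panc02 asGM1+. The Flt3L Panc02 asGM1+ libraries were the 3 highest of the 12. It rose 1.65-fold with the gate in Flt3L Panc02, a log2 change of 0.72 ± 0.17 (adjusted p = 0.0247), while the Panc02 gate gave -0.15 ± 0.17 (adjusted p = 0.893). The log2 interaction of 0.87 ± 0.24 (adjusted p = 0.142) was the largest of the 42 members and was not called by edgeR. Its asGM1+ libraries lay wholly higher in Flt3L Panc02 than in Panc02, by 0.41 ± 0.17 (adjusted p = 0.159), also without a call.

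Pcna, the sliding clamp, had the highest level per length of all members at 209.8 CPM per kb, and stood at 302, 356 and 369.9 CPM in the Panc02 asGM1- libraries, 333, 364 and 361 in Panc02 asGM1+, 338, 213 and 225 in Flt3L Panc02 asGM1- and 333, 270.5 and 353 in Flt3L Panc02 asGM1+. Flt3L Panc02 asGM1- replicate 1 lay among the Panc02 libraries while replicates 2 and 3 were the lowest of the 12. Pcna was not called, with 0.30 ± 0.17 (adjusted p = 0.293) for the Flt3L Panc02 gate and -0.40 ± 0.17 (adjusted p = 0.205) for the tumour type in asGM1- cells. Of the clamp loader subunits, Rfc2 rose with the Flt3L Panc02 gate by 0.47 ± 0.13 (adjusted p = 0.046) and Rfc5 by 0.41 ± 0.11 (adjusted p = 0.0414). Rfc4 gave 0.58 ± 0.18 (adjusted p = 0.0759) and Rfc3 0.21 ± 0.18 (adjusted p = 0.51), neither called. The loader subunits stood at 72.6, 64.2, 46.5 and 49.1 CPM per kb for Rfc2, Rfc3, Rfc4 and Rfc5. Rpa2, a subunit of the protein that coats single-stranded DNA, ranged over 143 to 273 CPM and rose by 0.58 ± 0.14 (adjusted p = 0.0235).

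Fen1 (ENSMUSG00000024742) trims the flaps between lagging strand fragments, and Lig1 seals the nicks that remain. Fen1 stood at 256, 252 and 259.5 CPM in the Panc02 asGM1- libraries, 236, 251 and 298 in Panc02 asGM1+, 156, 155 and 159 in Flt3L Panc02 asGM1- and 292, 222 and 231 in Flt3L Panc02 asGM1+. The Flt3L Panc02 asGM1- libraries lay between 155 and 159 CPM, below all the others. Fen1 rose 1.58-fold with the gate in Flt3L Panc02, a log2 change of 0.66 ± 0.12 (adjusted p = 0.00642), and fell in asGM1- cells with the tumour type, a log2 change of -0.71 ± 0.12 (adjusted p = 0.0114). It had the smallest adjusted p of all members in the tumour comparison. The Panc02 gate gave 0.03 ± 0.12 (adjusted p = 0.983) and the interaction 0.63 ± 0.17 (adjusted p = 0.131). Lig1 ranged over 114 to 239 CPM and was called in the same 2 comparisons, with log2 changes of 0.63 ± 0.13 (adjusted p = 0.0119) and -0.56 ± 0.13 (adjusted p = 0.0367).

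Nucleotide supply was the role with the largest median gate effect in Flt3L Panc02, 0.59 on the log2 scale over 5 members, of which 3 were called. Rrm1 (ENSMUSG00000030978), the large subunit of ribonucleotide reductase that makes deoxynucleotides, stood at 359, 313 and 302 CPM in the Panc02 asGM1- libraries, 332, 372 and 388 in Panc02 asGM1+, 174, 186 and 201 in Flt3L Panc02 asGM1- and 385, 295 and 254 in Flt3L Panc02 asGM1+. The Flt3L Panc02 asGM1- libraries were the lowest 3, and the asGM1+ libraries of that tumour spread from 254 to 385 CPM. Rrm1 had the largest gate effect of all members in Flt3L Panc02, 1.67-fold with a log2 change of 0.74 ± 0.14 (adjusted p = 0.0105). In asGM1- cells it fell with the tumour type, a log2 change of -0.80 ± 0.14 (adjusted p = 0.0157).

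Rrm2, the small subunit that sets when the reductase is active, stood at 327, 342 and 308 CPM in the Panc02 asGM1- libraries, 377, 429.7 and 445 in Panc02 asGM1+, 245, 172 and 156 in Flt3L Panc02 asGM1- and 351, 262 and 217 in Flt3L Panc02 asGM1+. The Panc02 asGM1+ libraries were the 3 highest, and all 3 of Flt3L Panc02 asGM1- lay below every Panc02 library. It fell in asGM1- cells with the tumour type, a log2 change of -0.77 ± 0.19 (adjusted p = 0.0471), and was not called for the gate, at 0.53 ± 0.19 (adjusted p = 0.104). In asGM1+ cells its tumour difference was -0.59 ± 0.19 (adjusted p = 0.0821).

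Tyms, which makes thymidylate, stood at 126, 147 and 144 CPM in the Panc02 asGM1- libraries, 149, 156 and 166 in Panc02 asGM1+, 111, 75.9 and 76.5 in Flt3L Panc02 asGM1- and 144, 111 and 142 in Flt3L Panc02 asGM1+. The Flt3L Panc02 gates met at 111 CPM, and Tyms gave called log2 changes of 0.59 ± 0.15 (adjusted p = 0.0369) with the gate and -0.66 ± 0.16 (adjusted p = 0.0412) with the tumour type in asGM1- cells. Tk1, the thymidine salvage kinase, stood at 152, 159 and 165 CPM in the Panc02 asGM1- libraries, 198, 182 and 199 in Panc02 asGM1+, 149, 90.1 and 93.7 in Flt3L Panc02 asGM1- and 177, 136 and 180.3 in Flt3L Panc02 asGM1+. Flt3L Panc02 asGM1- replicate 1 overlapped the other groups, and Tk1 was not called, at 0.57 ± 0.18 (adjusted p = 0.0694). Dut, which removes dUTP so that uracil stays out of DNA, stood at 157, 198 and 181 CPM in the Panc02 asGM1- libraries, 215, 239 and 227 in Panc02 asGM1+, 173, 107 and 115 in Flt3L Panc02 asGM1- and 212, 174 and 233 in Flt3L Panc02 asGM1+. It rose by 0.65 ± 0.18 (adjusted p = 0.0423), and the nearest libraries of the Flt3L Panc02 gates were at 173 and 174 CPM.

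S phase entry was covered by E2f1 and the E cyclins, and none of the 3 was called. E2f1, an activating E2F, stood at 86.7, 82.5 and 87.5 CPM in the Panc02 asGM1- libraries, 93.1, 95.0 and 106 in Panc02 asGM1+, 66.6, 71.5 and 62.6 in Flt3L Panc02 asGM1- and 100.04, 69.6 and 83.1 in Flt3L Panc02 asGM1+. The Flt3L Panc02 asGM1- libraries were below Panc02, and the gates of Flt3L Panc02 overlapped, with 0.33 ± 0.12 (adjusted p = 0.122). Ccne1, cyclin E1, stood at 72.8, 70.0 and 74.4 CPM in the Panc02 asGM1- libraries, 84.7, 92.9 and 97.9 in Panc02 asGM1+, 64.3, 43.1 and 43.5 in Flt3L Panc02 asGM1- and 76.3, 52.6 and 56.7 in Flt3L Panc02 asGM1+. The 3 Panc02 asGM1+ libraries were the 3 highest, and both Flt3L Panc02 groups were lower with overlap. Its log2 changes were 0.34 ± 0.17 (adjusted p = 0.542) for the gate in Panc02 and 0.30 ± 0.17 (adjusted p = 0.304) in Flt3L Panc02. The tumour type gave -0.53 ± 0.17 (adjusted p = 0.112) in asGM1- and -0.57 ± 0.17 (adjusted p = 0.0697) in asGM1+ cells, both below 0 and neither called.

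Ccne2, cyclin E2, was the second lowest member per length at 3.83 CPM per kb, and stood at 11.3, 13.6 and 12.3 CPM in the Panc02 asGM1- libraries, 15.8, 15.9 and 15.6 in Panc02 asGM1+, 9.65, 7.56 and 8.36 in Flt3L Panc02 asGM1- and 15.4, 10.4 and 11.1 in Flt3L Panc02 asGM1+. It had the smallest adjusted p of the members for the Panc02 gate, 0.35 ± 0.17 (adjusted p = 0.521), and gave 0.53 ± 0.17 (adjusted p = 0.0731) in Flt3L Panc02. Slbp, which binds the stem-loop of histone messages and is made in S phase, stood at 181, 202 and 199 CPM in the Panc02 asGM1- libraries, 219.6, 227 and 249.7 in Panc02 asGM1+, 199.9, 154 and 154 in Flt3L Panc02 asGM1- and 225, 197 and 168 in Flt3L Panc02 asGM1+. Its asGM1+ libraries of Panc02 lay above asGM1-, and the Flt3L Panc02 gates overlapped, with log2 changes of 0.26 ± 0.13 (adjusted p = 0.554) and 0.22 ± 0.13 (adjusted p = 0.334).

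Chromatin members copy DNA methylation and pack new DNA onto histones. Uhrf1 (ENSMUSG00000001228), which brings the maintenance methyltransferase to new DNA, stood at 271, 219 and 234 CPM in the Panc02 asGM1- libraries, 232, 224 and 283 in Panc02 asGM1+, 142, 151 and 150.5 in Flt3L Panc02 asGM1- and 266, 211 and 222 in Flt3L Panc02 asGM1+. The Flt3L Panc02 asGM1- libraries lay between 142 and 151 CPM and below all the others. Uhrf1 rose 1.58-fold with the gate in Flt3L Panc02, a log2 change of 0.66 ± 0.12 (adjusted p = 0.00887), and fell with the tumour type in asGM1- cells, a log2 change of -0.71 ± 0.12 (adjusted p = 0.0142). The gate in Panc02 gave 0.03 ± 0.12 (adjusted p = 0.989), and the interaction 0.63 ± 0.18 (adjusted p = 0.145).

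Chaf1a and Chaf1b are subunits of the chromatin assembly factor that places histones behind the fork. Chaf1a stood at 126, 103 and 103 CPM in the Panc02 asGM1- libraries, 115, 124 and 133 in Panc02 asGM1+, 73.4, 81.8 and 77.5 in Flt3L Panc02 asGM1- and 128, 98.6 and 116 in Flt3L Panc02 asGM1+. Chaf1b (ENSMUSG00000022945) stood at 106, 104 and 104 CPM in the Panc02 asGM1- libraries, 112, 114 and 124 in Panc02 asGM1+, 82.1, 65.8 and 71.9 in Flt3L Panc02 asGM1- and 122, 100.2 and 119 in Flt3L Panc02 asGM1+. For both, the Flt3L Panc02 asGM1- libraries were the lowest 3. Chaf1b had the smallest adjusted p of all members for the Flt3L Panc02 gate, with 0.63 ± 0.11 (adjusted p = 0.00489), and Chaf1a gave 0.56 ± 0.12 (adjusted p = 0.0157). In asGM1- cells both fell with the tumour type, with log2 changes of -0.51 ± 0.12 (adjusted p = 0.0412) for Chaf1a and -0.51 ± 0.11 (adjusted p = 0.0269) for Chaf1b. Ung stood apart, at 4.35, 4.197 and 3.65 CPM in the Panc02 asGM1- libraries, 3.57, 3.91 and 4.18 in Panc02 asGM1+, 4.204, 4.68 and 4.27 in Flt3L Panc02 asGM1- and 5.21, 3.28 and 5.21 in Flt3L Panc02 asGM1+. It was the lowest member per length, 1.65 CPM per kb, its groups overlapped in each comparison tested, and its log2 changes were 0.06 ± 0.20 (adjusted p = 0.894) for the gate in Flt3L Panc02 and 0.11 ± 0.20 (adjusted p = 0.823) for the tumour type in asGM1- cells.

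**Figure D3:**
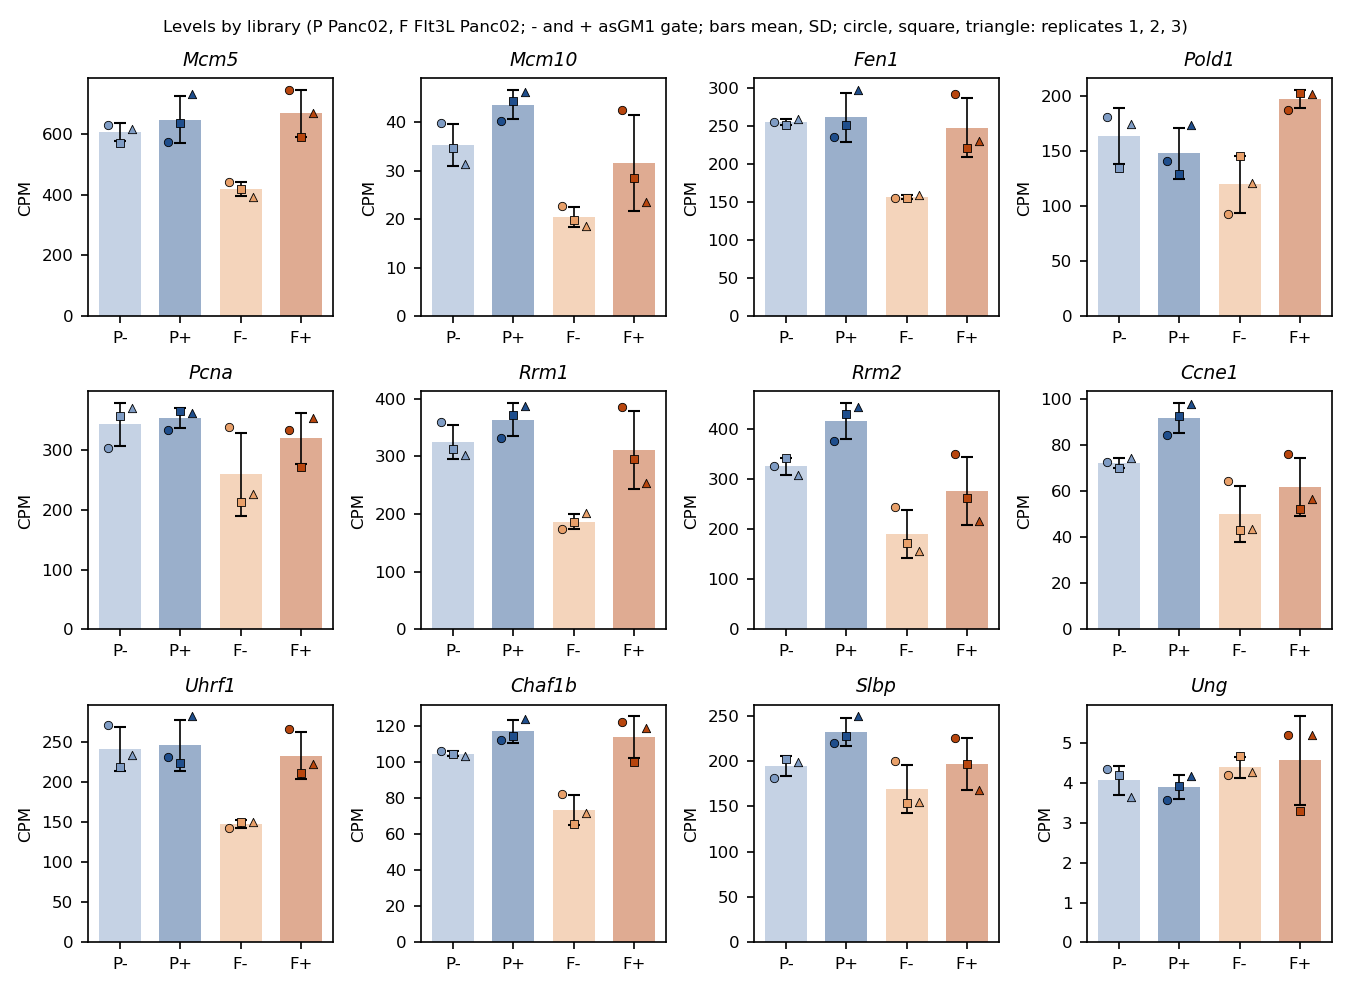
CPM of 12 members by library: P is Panc02 and F is Flt3L Panc02, - and + are the asGM1 gates, bars are group means with SD (n = 3), and circle, square and triangle are replicates 1, 2 and 3. Fen1 and Uhrf1 show all 3 F- libraries below the other 9, while in Pcna F- replicate 1 lies among the Panc02 libraries and the Ung gates overlap in both tumours.

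Called members were found both with and without the E2F motif. In the Flt3L Panc02 gate comparison 5 of 9 members with the motif and 11 of 26 without it were called higher, with median log2 changes of 0.50 and 0.55. In asGM1- cells between tumours 3 of 9 and 9 of 26 were called lower, with medians of -0.53 and -0.50. These counts are descriptions of the 35 members with a promoter entry, and the difference between them was not tested.

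Because the labels do not say whether the libraries kept strand, reads from a member and a gene on the other strand cannot be told apart where their exons overlap. In the GENCODE vM21 annotation (GRCm38) 15 members share exon bases with another gene, all on the opposite strand, and 10 share over 10% of theirs. Fen1 shares 78.8% with Gm10143, Gins2 70.7% with Gse1, Chaf1a 33.6% with Ubxn6 and Rfc2 19.1% with Lat2. Group means were 3.49 to 7.22 CPM for Gm10143 and 8.69 to 10.7 CPM for Gse1, both under their member. Lat2 rose with the Flt3L Panc02 gate as Rfc2 did, with a log2 change of 0.93 (adjusted p = 0.0017) and means of 82.5 ± 9.47 CPM (SD, n = 3) in asGM1- and 157 ± 6.89 CPM in asGM1+, and its part in the Rfc2 count was not tested.

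Other genes of DNA replication were described from a list chosen by function. From that list of 55 other replication and S phase genes, 2 were called higher with the gate in Flt3L Panc02, a share near the 2.77% of all genes. They were Rpa1 by 0.53 ± 0.11 (adjusted p = 0.0137) and Rnaseh2b, a subunit of the nuclease that removes ribonucleotides from DNA, by 0.55 ± 0.12 (adjusted p = 0.0185). The list's median log2 change there was 0.24. In asGM1- cells 4 were lower in Flt3L Panc02, against 1.84% of all genes: Mtbp, Orc3, Dscc1 and Mcm8, with log2 changes of -0.79, -0.33, -0.62 and -0.58. In asGM1+ cells 4 were lower, against 4.2% of all genes: the homologous recombination gene Brca2 at -1.06 ± 0.20 (adjusted p = 0.014), the clamp unloader Atad5 at -1.002 ± 0.20 (adjusted p = 0.0184), and Orc2 and Mtbp.

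Of 37 other genes of the Rb-E2F pathway, 3 rose with the gate in Flt3L Panc02, against 2.77% of all genes, and 3 fell, against 5.83% of all genes. Those that rose were the kinase inhibitor Cdkn2c (p18), the transcription factor Mybl2 and cyclin A2 (Ccna2), with log2 changes of 1.10 ± 0.14 (adjusted p = 0.000879), 0.94 ± 0.15 (adjusted p = 0.00351) and 0.67 ± 0.13 (adjusted p = 0.0106). Those that fell were the D cyclins Ccnd2 and Ccnd1 and the transcription factor Myb. Ccnd2 gave log2 changes of -0.71 ± 0.11 (adjusted p = 0.0031) in Flt3L Panc02 and -0.72 ± 0.11 (adjusted p = 0.00867) in Panc02. It was the 1 gene of the list called with the gate in Panc02, where 0.843% of all genes were called lower. Cdkn2c had group means of 27.6, 26.7, 19.3 and 41.3 CPM in Panc02 asGM1-, Panc02 asGM1+, Flt3L Panc02 asGM1- and Flt3L Panc02 asGM1+. It was the 1 gene of the list called in the interaction, at 1.14 ± 0.19 (adjusted p = 0.0324), against 0.0343% of all genes called higher. In asGM1- cells between tumours Ccna2 and Mybl2 were lower, against 1.84% of all genes. In asGM1+ cells Cdkn2c was higher, against 2.05% of all genes, and Ccnd1 lower, against 4.2%.

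A list of 46 genes that act in mitosis, after S phase, was described in the same way. With the gate in Flt3L Panc02 18 of the 46 were called higher, against 2.77% of all genes, and 0 lower, against 5.83%. Their median log2 change was 0.52 beside -0.01 over all genes, and Bub1, a spindle checkpoint kinase, gave 0.78 ± 0.11 (adjusted p = 0.00164). In asGM1- cells 21 were lower in Flt3L Panc02, against 1.84% of all genes, with a median of -0.62 beside 0.00. In asGM1+ cells 6 were lower, against 4.2% of all genes, with a median of -0.34 beside -0.03. Among them was the proliferation marker Mki67 at -0.74 ± 0.15 (adjusted p = 0.0173). With the gate in Panc02 0 were called, against 0.049% of all genes higher and 0.843% lower. All 46 log2 changes there were above 0, with a median of 0.21 beside 0.02. In the interaction 0 were called. These comparisons share libraries with those of the members, and the lists were not tested against each other.

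Levels of other lists varied with the groups. The 18 T cell identity genes summed to 14053 to 17585 CPM in Panc02 asGM1-, 13093 to 15719 in Panc02 asGM1+, 14922 to 16503 in Flt3L Panc02 asGM1- and 17543 to 23294 in Flt3L Panc02 asGM1+. The lowest T cell mean was in Panc02 asGM1+ and the highest in Flt3L Panc02 asGM1+. In Flt3L Panc02 asGM1+ 2 of the 18 genes were called higher than in asGM1-, against 2.77% of all genes. There 5 were called higher than in Panc02 asGM1+, against 2.05% of all genes. The part of T cell content in the members' levels was not tested. The 18 plasmacytoid dendritic cell genes summed to 1857 to 2027 CPM in Flt3L Panc02 asGM1-. Their sums were 1086 to 1179 CPM in Panc02 asGM1-, 797 to 920.0 in Panc02 asGM1+ and 832 to 956 in Flt3L Panc02 asGM1+. The genes fell unevenly with the gate, so the sums do not show the fall of single markers. The list's median log2 change with the asGM1+ gate was -4.11 in Panc02 and -5.21 in Flt3L Panc02. In the asGM1+ gates of Panc02 and Flt3L Panc02, mean Ly6d was 0.87 and 1.73 CPM and mean Pacsin1 35.6 and 102 CPM. With the asGM1+ gate 13 of 18 were called lower in Flt3L Panc02, against 5.83% of all genes. In Panc02 it was 10 of 18, against 0.843% of all genes. In asGM1- cells 8 of 18 were called higher in Flt3L Panc02 than in Panc02 tumours, against 1.86% of all genes, and 0 lower, against 1.84%. The part of these cells in the members' lower level was not tested. The 4 genes of CD4 and regulatory T cells summed to 77.6 to 102 CPM in Panc02 asGM1- and 65.8 to 97.9 CPM in Flt3L Panc02 asGM1-, against 23.5 to 27.7 and 31.0 to 39.2 CPM in the asGM1+ gates of Panc02 and Flt3L Panc02. Of these, Cd4, Cd40lg and Foxp3 were called lower with the asGM1+ gate in both tumours. Over all genes 0.843% were called lower in Panc02 and 5.83% in Flt3L Panc02. Between tumours in asGM1- cells Cd4 was higher in Flt3L Panc02, against 1.86% of all genes, and Foxp3 lower, against 1.84%. The part of the CD4 and regulatory T cells was not tested either. The 20 macrophage and monocyte genes summed to 2075 to 3116 CPM in Flt3L Panc02 asGM1- and 2263 to 3108 CPM in asGM1+. The Panc02 gates gave 2644 to 3081 and 2666 to 5667 CPM. In Panc02 asGM1+ replicates 1, 2 and 3 gave 5667, 4128 and 2666 CPM. In asGM1+ cells 6 of 20 were called lower in Flt3L Panc02 than in Panc02, against 4.2% of all genes, and 0 higher, against 2.05%. With the gate in Flt3L Panc02, 1 was called higher, against 2.77%, and 1 lower, against 5.83%. With the gate in Panc02 (median log2 change 0.96) and between tumours in asGM1- cells (-1.08) 0 were called. The part of these cells in the members' levels was not tested. Summed fibroblast and tumour epithelial genes stayed at or under 168 and 150.5 CPM in every library.

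**Figure D4:**
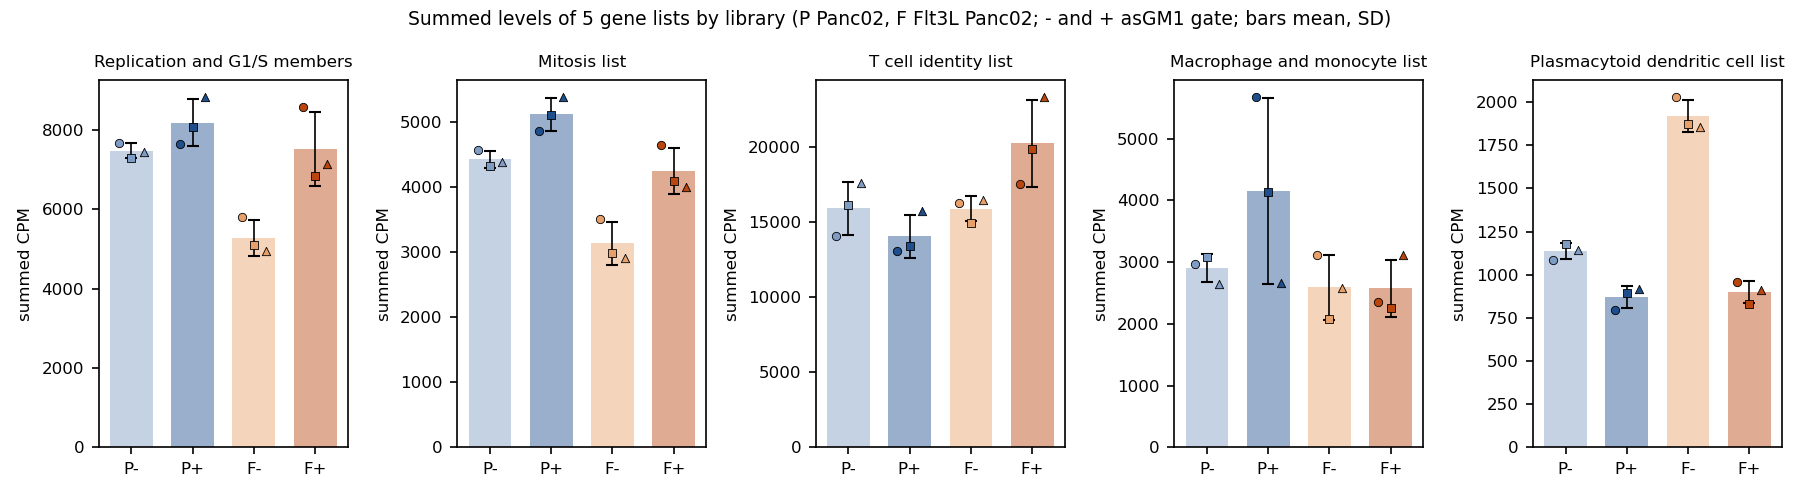
Summed CPM of the 42 members, the mitosis list and 3 cell type lists by library, with P for Panc02, F for Flt3L Panc02, - and + for the asGM1 gates, bars for mean and SD (n = 3), and circle, square and triangle for replicates 1, 2 and 3. The members and the mitosis list are lowest in F-, where the plasmacytoid dendritic cell list is highest.

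Within some groups, 1 library often led. Panc02 asGM1+ replicate 3 was the highest of its group in 36 of 42 members and Flt3L Panc02 asGM1+ replicate 1 in 31. Flt3L Panc02 asGM1- replicate 1 was the highest in 28 and the lowest in 10. Panc02 asGM1- had no such leader, since its replicate 1 was the highest in 21 and the lowest in 15. The shares of all genes were not counted. In Flt3L Panc02 the ratios between libraries differed with exon length, in members and in all genes. In Flt3L Panc02 asGM1- replicate 1, members with under 2000 exon bases had a median log2 ratio of 0.64 (10 members) to the mean of replicates 2 and 3, and members over 3000 bases a ratio of -0.00 (21 members). All genes averaging 5 CPM or more gave 0.29 and -0.24 in the same length classes, 2925 and 5251 genes. From 2000 to 3000 bases the ratio was 0.35 for members and 0.02 for all genes. For Flt3L Panc02 asGM1+ replicate 3 against 1 the members' ratios were 0.04, -0.37 and -0.39 from the shortest to the longest class. Those of all genes were 0.29, 0.03 and -0.18. Over group means, the members' ratio of asGM1+ to asGM1- in Flt3L Panc02 was 0.41, 0.40 and 0.49 for under 2000, 2000 to 3000 and over 3000 bases, and that of all genes 0.21, 0.10 and 0.01. Single libraries of equal number differed. The members' ratios were 0.14, 0.33 and 0.80 for replicate 1, 0.41, 0.40 and 0.39 for replicate 2 and 0.70, 0.47 and 0.41 for replicate 3. Those of all genes were -0.08, 0.07 and 0.20, then 0.25, 0.12 and -0.02, then 0.435, 0.095 and -0.20. The members' ratio of Flt3L Panc02 to Panc02 in asGM1- cells was -0.51, -0.50 and -0.53, and that of all genes -0.07, -0.08 and -0.02. With offsets for exon length, chosen after these differences were seen, 17 members were called higher with the gate in Flt3L Panc02, against 3.62% of all genes, and 7 in place of 12 lower in asGM1- cells between tumours, against 2.43% of all genes.

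**Figure D5:**
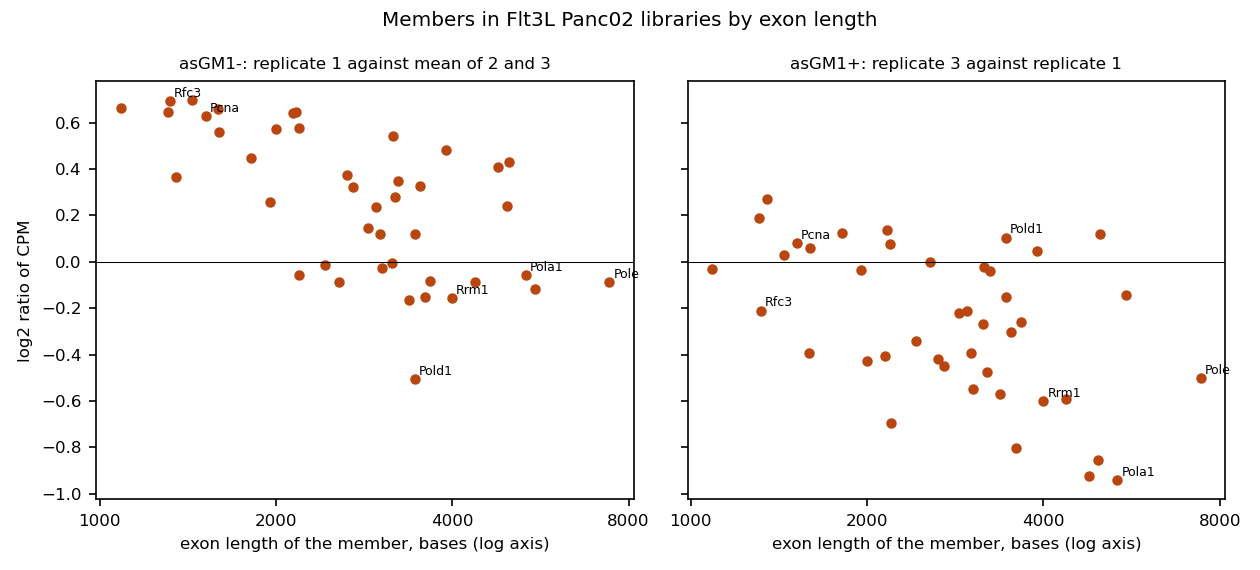
Log2 ratio of CPM between libraries of 1 group against exon length in bases (log axis) for the members: left, Flt3L Panc02 asGM1- replicate 1 against the mean of replicates 2 and 3; right, Flt3L Panc02 asGM1+ replicate 3 against replicate 1. On the left, members under 2000 bases have a median ratio of 0.64 and those over 3000 bases -0.00.

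Single libraries carried part of the calls. For the gate in Flt3L Panc02, 5 members (Chaf1b, Fen1, Mcm5, Rrm1 and Uhrf1) were called in all 12 runs that left out 1 library each. The share of all genes called in every run was not counted. The number called was 6 without Flt3L Panc02 asGM1+ replicate 1, against 320 of 21314 genes. It was 6 without asGM1- replicate 3, against 275 of 21178, and 7 without asGM1- replicate 2, against 176 of 21163. Without Panc02 asGM1- replicate 2 or 3 or asGM1+ replicate 2 it was 11, against 359 of 21280, 391 of 21274 and 375 of 21203. A fit to the 6 Flt3L Panc02 libraries alone called 4 members, Uhrf1, Fen1, Mcm5 and Chaf1b, against 195 of 18825 genes. For the tumour type in asGM1- cells, Uhrf1 was called in 11 of the 12 runs, and Fen1 and Rrm1 in 10. The number there was 1 without Panc02 asGM1- replicate 2, against 51 of 21280 genes. It was 3 without Panc02 asGM1- replicate 1 or 3, against 198 of 21227 and 92 of 21274. Without Flt3L Panc02 asGM1- replicate 3 it was 3, against 135 of 21178. Without Panc02 asGM1+ replicate 2 it was 5, against 209 of 21203.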

How the data were processed

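The authors deposited a table of expected counts per gene for the 12 libraries, that is, estimated counts, already whole, with all columns assigned to a sample. TRIzol extraction is given per the labels' protocols, which name 2 kits (TruSeq mRNA, SMARTer ultra low input). HISAT2, StringTie and mm39 are listed per the submitters' processing notes, with no version or annotation given in the sources used here. Values of 3 and more were most frequent near multiples of about 2.71 counts (2.67 to 2.75 described them equally well), while values of 1 and 2 were frequent too, so counts may overstate fragments.

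Groups came from the sample titles. In R 4.3.3, edgeR 4.0.16 scaled libraries by TMM, kept 20411 genes by filterByExpr and fitted 1 quasi-likelihood model of 4 group means over 12 libraries. All genes were adjusted together (Benjamini-Hochberg, threshold 0.05). The SE is the absolute log2 fold change, fitted without the prior count, over the square root of F. The edgeR fit was also run on simulated counts. Their spread was set below the common spread estimated from these libraries, so that run does not vouch for the calls here. Summaries over lists have no test, and 1 marker list is not reported here. Levels per kilobase use exon lengths of GENCODE vM21 (GRCm38), a build other than the authors'. Alternatives were DESeq2 1.42.0, limma 3.58.1 voom, other scalings and filters, a fit to compared groups, a replicate block, counts per fragment, leaving out libraries and, added after seeing the data, exon length offsets.

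The members, gene lists and the rule for named genes (all members, per-library values for a panel by role and the top called members) were chosen with earlier results of these data known.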

Additional observations from a re-analysis of the deposited data

How the results depend on the processing

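With libraries scaled on summed T cell identity genes, the median of all genes moved to 0.20 and -0.34 for the gates in Panc02 and Flt3L Panc02, 0.00 and -0.55 for the tumour types in asGM1- and asGM1+ cells and -0.53 for the interaction. The members' medians became 0.32, 0.19, -0.51, -0.66 and -0.18, or 0.12, 0.53, -0.50, -0.12 and 0.35 relative to those. A change of scaling shifts members and all genes alike, so these relative values were nearly fixed in advance. Called members became 0 for the gate in Flt3L Panc02 and 0 for the tumour type in asGM1- cells. In asGM1+ cells 36 were called lower, against 30.3% of all genes. Among them Mcm5 (-0.45), Gins4 (-0.48), Rfc2 (-0.52) and Rpa2 (-0.48) changed sign. For the gate in Flt3L Panc02, 11 members were called higher with no low-count filter, against 358 of 31315 genes. Limma-voom called 29, against 1163 of 20411, and the compared groups alone 4, against 195 of 18825. The tumour type in asGM1- cells gave 5 members called lower with no filter, against 195 of 31315 genes. It gave 36 with limma-voom, against 1698 of 20411, and 21 with DESeq2, against 1141 of 19114. Exon length offsets gave 7, against 497 of 20411. In asGM1+ cells limma-voom called 6 lower and 1 higher, against 1753 and 1367 of 20411 genes. DESeq2 called 3 lower, against 1881 of 20917. A stricter filter called 1 (Ccne1) lower, against 721 of 10821, and exon length offsets 1 (Rfc3) lower, against 977 of 20411. The interaction gave 5 higher with limma-voom, against 263 of 20411 genes, and 4 with DESeq2, against 202 of 19714. It has no fit to compared groups alone. Leaving out 1 library gave 6 to 24 calls with medians of 0.34 to 0.58 for the gate in Flt3L Panc02. It gave 0 to 24 calls for the tumour type in asGM1- cells and 0 to 5 in asGM1+ cells. In asGM1+ cells 4 were called lower without Flt3L Panc02 asGM1- replicate 1, against 997 of 21191 genes. Without Flt3L Panc02 asGM1+ replicate 1 it was 5, against 747 of 21314. Calls over all genes moved with the library left out too. The cause of these changes was not tested. Other settings left each count of calls within 1.5 times.

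Replicate numbers were not taken to pair the samples, since the labels do not say whether equal numbers share a tumour and not every correlation was over 0.1. Deviations of same-numbered gates correlated at 0.28, 0.095 and 0.17 in Panc02 and 0.054, 0.10 and 0.022 in Flt3L Panc02. Every sample correlated best with its own number in Panc02 and 5 of 6 did in Flt3L Panc02, a hint from the data and not from the design. With a replicate block 22 members were called higher for the gate in Flt3L Panc02, against 769 of 20411 genes. For the tumour type in asGM1- cells 12 were called lower, against 367 of 20411. The other comparisons gave 0 called members.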
